A study of Mus musculus with 6 samples.

Results

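The 34 genes described here encode the enzymes of glycolysis and of the pentose phosphate pathway, together with genes of the response to low oxygen. They were chosen by symbol as genes of these pathways, and 33 of the 34 were among the 14051 genes listed for 6 libraries. Of these, 32 passed a filter on low values, which 11649 of the 14051 genes passed. Gapdh, which encodes the dehydrogenase of the middle of glycolysis, was not analysed here. Vegfa, which encodes a vessel growth factor, was measured but did not pass the filter.

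Glycolysis breaks glucose down to pyruvate, which lactate dehydrogenase turns into lactate or which enters the mitochondria. The pentose phosphate pathway branches off after the first step of glycolysis and makes NADPH and the ribose of nucleotides, which dividing T cells use in quantity. HIF-1, a transcription factor whose alpha subunit is marked for breakdown by oxygen-dependent prolyl hydroxylases, binds near many of these genes, and activated CD8+ T cells are known for high glycolysis even where oxygen is plentiful.

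Bulk RNA-Seq was available from donor CD8+ T cells in the BM, with 3 libraries labelled GC-treated and 3 labelled vehicle-treated, to show what GCs do to the donor T cells. B6D2F1 recipients, transplanted with CD3+ T cells that had been purified from B6.CD45.1+ mice, were given dexamethasone, a synthetic GC, at 5 mg/kg/day i.p., or the vehicle, methyl β-cyclodextrin, on days -1 to 5 around BMT. Every recipient in both groups had total body irradiation and the same graft, and the labels do not state the age of the mice. The CD45.1+CD8+ T cells that an i.v. anti-CD45 antibody had marked as lying within vessels were sorted on day 5, each biological group being a BM pool of 2 to 3 mice. Whether the 3 libraries of a group came from separate pools is not stated in the methods. Replicate error is therefore the spread between libraries, which may be technical in part, and dexamethasone acted on all cells of the recipient, not on T cells alone.

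Reads on the listed genes numbered 67887570 to 76888118 in GC-treated libraries and 60949593 to 64801008 in vehicle-treated libraries. The values are normalized counts, in which the reads of each library are divided by 1 size factor. The T cell genes Cd8a, Cd8b1 and Cd3e, which define the labelled cell type, were high in all 6 libraries. Cd4 was at 86.3 to 164 normalized counts in GC-treated libraries and 97.1 to 178 in vehicle-treated libraries. All 7 CD4 T cell markers, Cd4 among them, had negative log2 fold changes, GC-treated over vehicle-treated, with a median of -0.25. So had the 4 tested erythroid markers, with a median of -0.79. Those of monocytes and macrophages had 3 positive and 5 negative values, and those of B cells 2 positive and 1 negative. Markers of neutrophils, 11 of 14 of which were listed, took 0.00283, 0.0190 and 0.0134% of reads in GC-treated 1, 2 and 3, against 0.00130, 0.000737 and 0.00665% in vehicle-treated 1, 2 and 3. GC-treated 1 stood apart from its group. Over the 11649 genes that passed the filter, its mean absolute log2 difference from the vehicle-treated libraries was 0.295 to 0.334. From GC-treated 2 and 3 it was 0.413 and 0.502. GC-treated 3 was the library farthest from each of the others, at 0.452 to 0.535.

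No member passed the test between the groups. With limma on log2(normalized count + 1) and Benjamini-Hochberg adjustment over all 11649 tested genes, 0 of 32 members were higher and 0 lower in GC-treated cells at an adjusted p under 0.05, and 0% of all tested genes were higher and 0% lower. At an unadjusted p under 0.05, 2 members were higher, Pkm and Egln1, against 2.12% of all tested genes, and 1 was lower, Hk2, against 5.07%. The edgeR test called 0 members at an adjusted p under 0.05, and at the unadjusted threshold 3 were higher, against 2.27% of all tested genes, and 1 was lower, against 3.79%. DESeq2 called 0 members, against 0.0143% of the 14034 genes it tested, and at an unadjusted p under 0.05 it had 4 members higher, against 2.41% of those genes, and 1 lower, against 4.63%. No member was called without GC-treated 1, without which limma called 2 genes higher and 43 lower over all genes. Nor was any called without both GC-treated 1 and vehicle-treated 3, a choice made after seeing the data, which gave 32 genes higher and 64 lower. At an unadjusted p under 0.05, limma without its mean-variance trend had 0 members higher and 0 lower, against 231 and 329 of 11649 genes. The same held without GC-treated 3, against 146 and 310 genes, and without vehicle-treated 2, against 79 and 195 genes. Without GC-treated 1, 5 members were higher and 2 lower, against 971 and 1424 genes.

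The log2 fold changes of the members were small and mostly positive. Of the 32, 27 were positive and 5 negative, against 48.5% positive among all tested genes. Their median was 0.10, against -0.0079 for all tested genes. The CD8 T cell marker genes leaned the same way, with 11 of 13 positive, 2 negative and a median of 0.11. Those markers took 0.806, 0.929 and 0.977% of reads in GC-treated 1, 2 and 3, against 0.849, 0.812 and 0.836% in vehicle-treated 1, 2 and 3. In 24 of the 32 members the 95% interval of the fold change lay within 1.5-fold in both directions (a log2 value of 0.58), which was so for 59.1% of all tested genes. For these 24, a difference of more than 1.5-fold lies outside the interval, while for Hk2, Aldoc, Ldhb, Pfkfb4, Rpia, Egln1, Egln3 and Bnip3 it does not. Groups did not overlap in 1 member with the GC-treated libraries above, Egln3, and in 1 with them below, Hk2, against 6.4% of all tested genes in each direction.

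**Figure D1:**
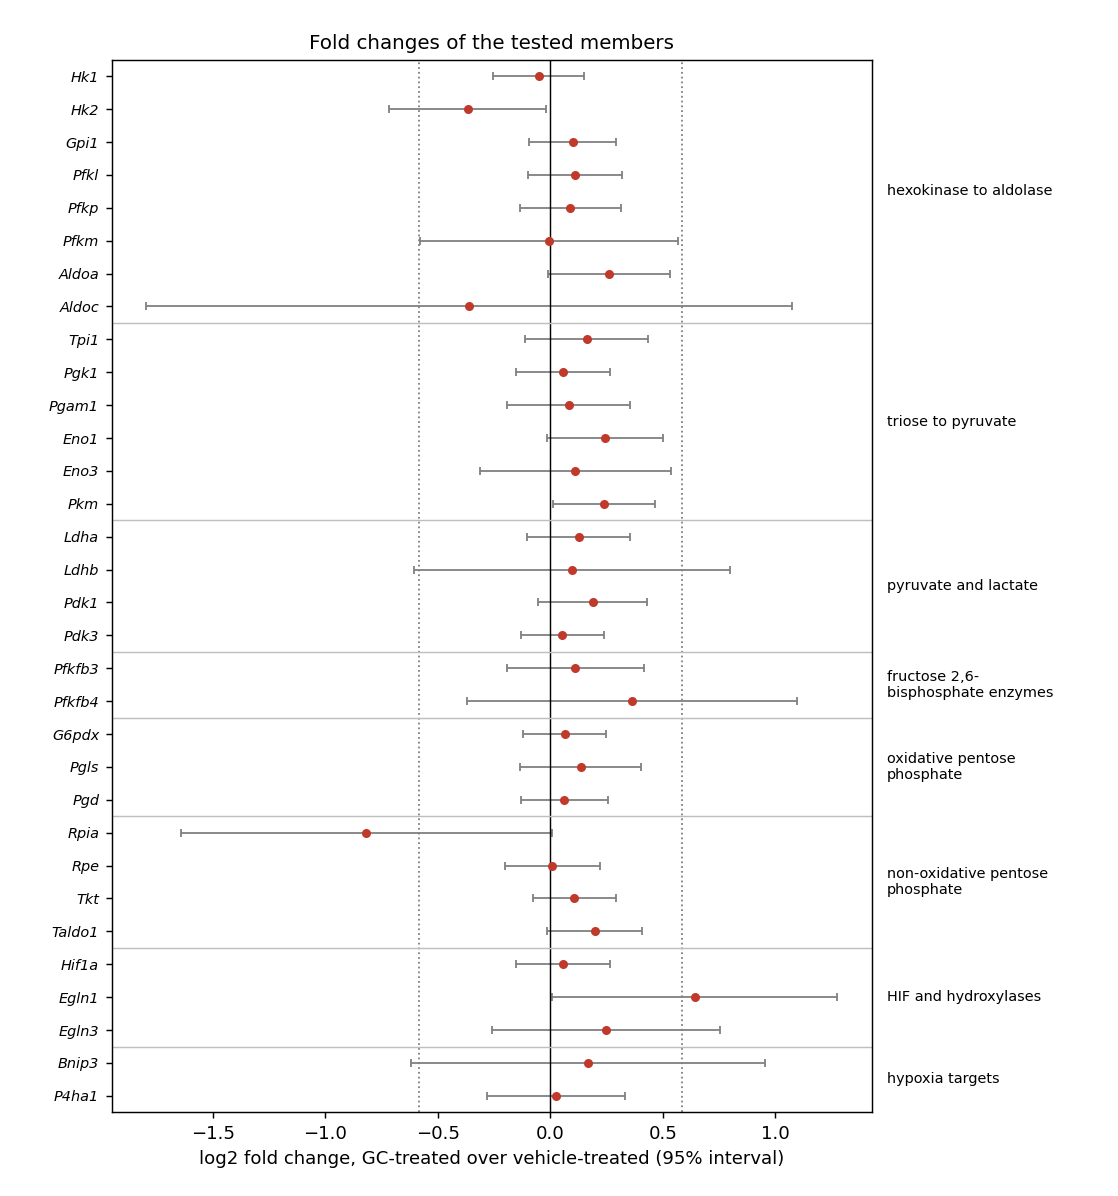
Log2 fold changes of the 32 tested members, GC-treated over vehicle-treated, as points with their 95% intervals from limma, grouped by role from top to bottom. The dotted lines mark 1.5-fold, and 27 points lie right of 0, while only the intervals of Pkm, Egln1 and Hk2 leave out 0.

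The size of the difference rested largely on 1 library. GC-treated 3 had the highest value of the 6 libraries in 18 of the 32 members, and it was the highest in 28.4% of all tested genes. It was the lowest in 1 member and in 29.5% of all tested genes. Vehicle-treated 2 was the lowest in 12 members and in 18.1% of all tested genes. Vehicle-treated 1 was the lowest in 8 members and in 11.1% of all tested genes. Summed, the tested members took 1.43, 1.44 and 1.70% of reads in GC-treated 1, 2 and 3, against 1.32, 1.34 and 1.43% in vehicle-treated 1, 2 and 3. GC-treated 1 thus had about the share of vehicle-treated 3, and GC-treated 3 lay above all others. Without GC-treated 3 the median log2 fold change of the members was 0.029, with 24 positive and 8 negative values, and without GC-treated 1 it was 0.13. In 30 of the 32 members, leaving out some single library moved the log2 fold change by over 1.5 times or turned its sign, the exceptions being Taldo1 and Egln3.

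**Figure D2:**
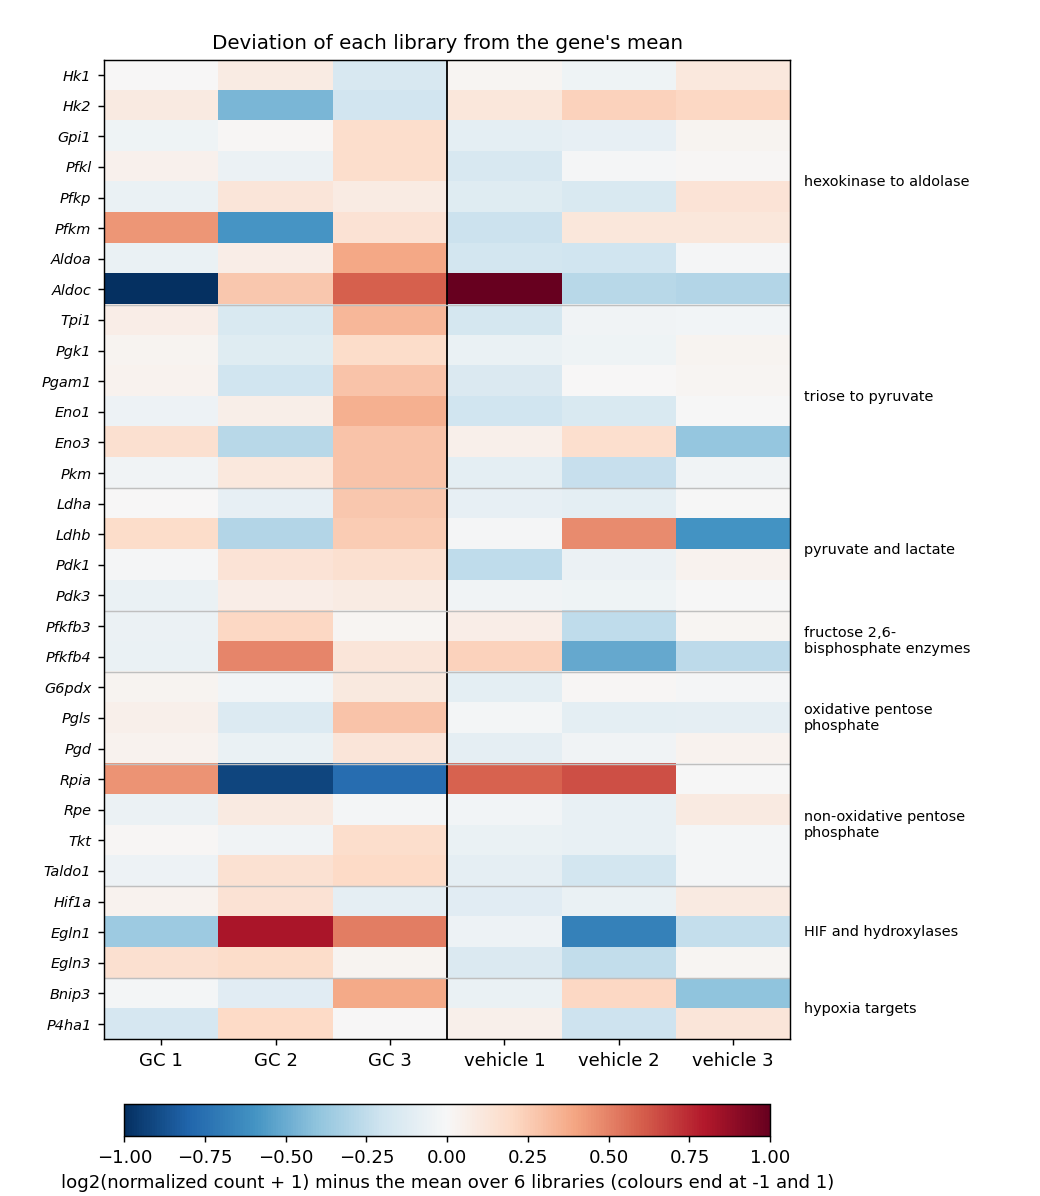
Each library's log2(normalized count + 1) minus the gene's mean over the 6 libraries, for the 32 tested members in rows and the libraries in columns, with the GC-treated libraries left of the black line. Red is above and blue below the mean, and the GC-treated 3 column is the reddest in the rows of the triose to pyruvate steps, while in Egln1 and Rpia GC-treated 1 has the opposite colour to the other 2 GC-treated libraries.

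Levels were compared between genes per length, as TPM over the listed genes. Ldha was the highest member, with a mean of 5710 TPM over the 6 libraries and a range of 5360 to 6450, and it ranked 9 among all genes with a length. Eno1 followed at 3130 TPM (2740 to 3750), then Pkm at 1730 TPM (1520 to 1980) and Aldoa at 1540 TPM (1360 to 1880). The ranges of Ldha, Eno1 and Pkm did not overlap, whereas those of Pkm and Aldoa did. From Tpi1 at 872 TPM, the order ran through Pgk1, Pfkp and Pgam1, at 671, 662 and 623 TPM with overlapping ranges, to Taldo1 at 577 and Gpi1 at 503 TPM. Tkt, Hk1, Pgls, Pdk3, Pfkl, Pgd and Hif1a had 295 to 102 TPM. Then came G6pdx at 61.2 TPM, Eno3 at 42.4, Egln1 at 37.9, Rpe at 36.3, Pdk1 at 30.9 and P4ha1 at 29.7 TPM, all with ranges that overlap that of Egln1. Pfkfb3, Pfkm, Rpia, Hk2 and Ldhb lay between 10.5 and 5.27 TPM, Egln3 at 2.44, Pfkfb4 at 1.12, Aldoc at 0.781, Bnip3 at 0.757 and Vegfa at 0.0567 TPM. Ldha, Eno1 and Pkm were thus the most abundant members, and Vegfa was the lowest. The range of Bnip3, 0.57 to 0.917 TPM, lay within that of Aldoc, 0.252 to 1.5 TPM.

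**Figure D3:**
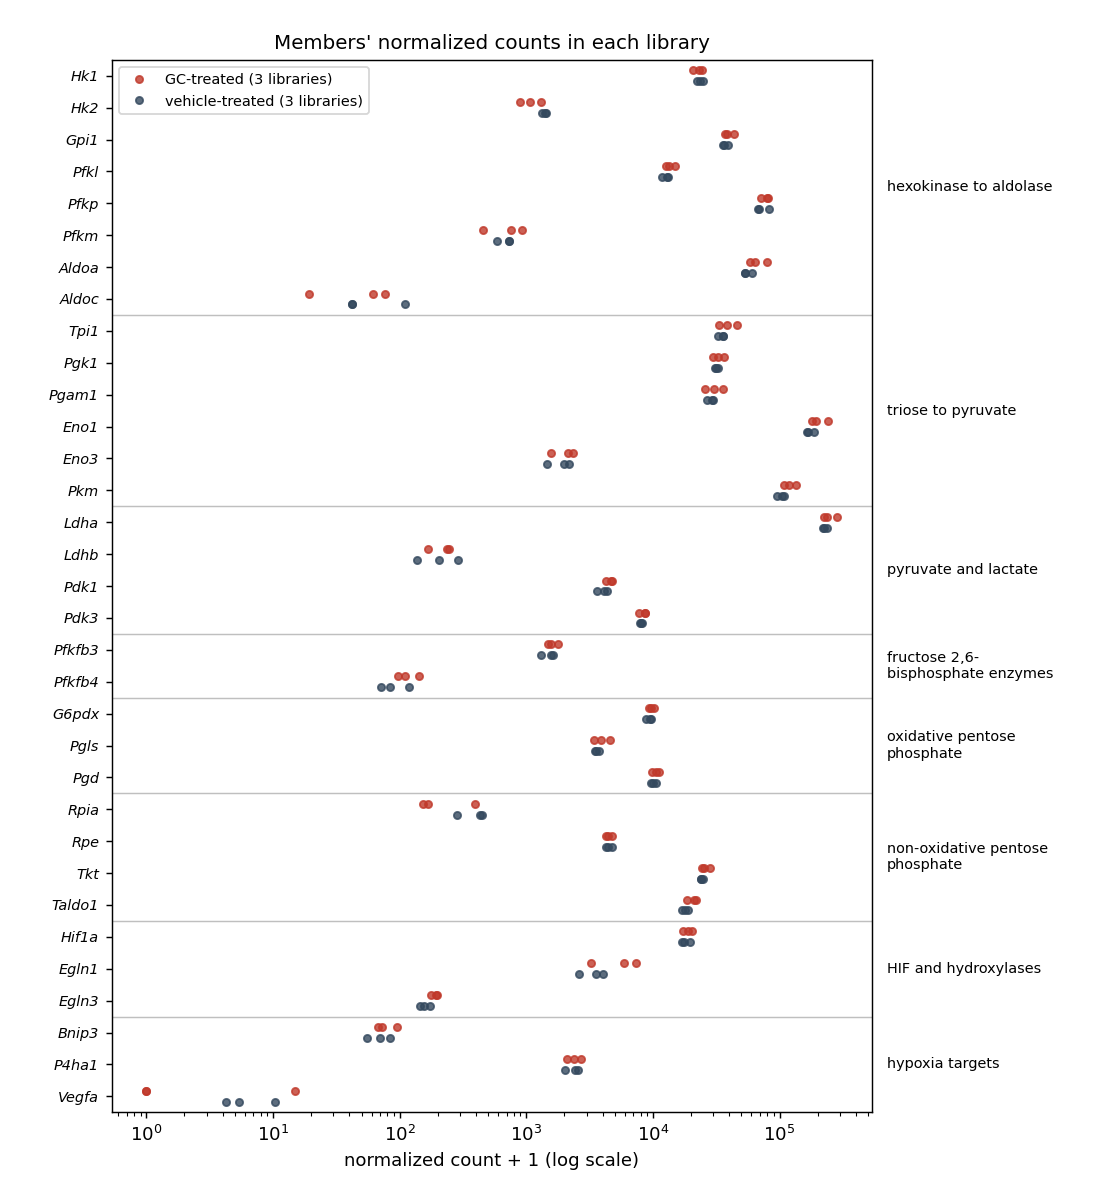
Normalized count + 1 of the 33 listed members in each library on a log axis, grouped by role, with the GC-treated libraries as red points above the vehicle-treated ones in dark blue. Levels run from Vegfa at 0 to 13.9 normalized counts up to Ldha at 222356 to 286781, and the points of the 2 groups lie close together beside this range.

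In the first steps of glycolysis, hexokinase traps glucose in the cell, glucose phosphate isomerase (Gpi1) converts it, phosphofructokinase commits it to glycolysis and aldolase splits it. This group of 8 had 4 positive and 4 negative log2 fold changes with a median of 0.041. Hk2, the inducible hexokinase (GRCm39 chr6:82699740-82751469, minus strand), had 1305, 894 and 1074 normalized counts in GC-treated 1, 2 and 3, against 1324, 1438 and 1417 in vehicle-treated 1, 2 and 3. All 3 GC-treated libraries lay below the vehicle-treated ones, with GC-treated 1 only just below the lowest. Its log2 fold change was -0.37 ± 0.15 (SE, limma, unadjusted p = 0.040, adjusted p = 0.62), with an interval of -0.72 to -0.020. Aldoa, the main aldolase of most tissues, had 58095, 63814 and 79614 normalized counts in GC-treated libraries, against 53589, 52925 and 60488 in vehicle-treated libraries, a log2 fold change of 0.26 ± 0.12 (SE). The groups overlapped, since vehicle-treated 3 lay above GC-treated 1, and without GC-treated 3 its log2 fold change was 0.13. The log2 fold changes of the others were -0.05 for Hk1, 0.10 for Gpi1, 0.11 for Pfkl, 0.09 for Pfkp, -0.0055 for Pfkm and -0.36 for Aldoc. Pfkp had 71444 to 81637 normalized counts in GC-treated libraries and 67602 to 82382 in vehicle-treated libraries. Aldoc, the brain aldolase, was low and scattered, with 18.2, 60.5 and 76.3 normalized counts in GC-treated libraries, against 109, 41.1 and 40.7 in vehicle-treated libraries.

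In the later steps, Tpi1 interconverts the triose phosphates, Pgk1 and pyruvate kinase (Pkm) make ATP, Pgam1 moves a phosphate and enolase removes water. All 6 listed members of this group had positive log2 fold changes, with a median of 0.14, and without GC-treated 3 that median was 0.015. Eno1, the enolase of most cells, had 181679, 195711 and 241016 normalized counts in GC-treated libraries, against 163720, 169253 and 187462 in vehicle-treated libraries. Only GC-treated 1 lay within the range of the vehicle-treated libraries, and the log2 fold change was 0.24 ± 0.11 (SE, limma adjusted p = 0.62), or 0.12 without GC-treated 3. Pkm (GRCm39 chr9:59563364-59586663, plus strand) had 108441, 119691 and 135641 normalized counts in GC-treated libraries, against 103807, 94978 and 108517 in vehicle-treated libraries. Here GC-treated 1 and vehicle-treated 3 were nearly equal, so the groups overlapped by a small margin, and the log2 fold change was 0.24 ± 0.10 (SE, limma, unadjusted p = 0.040, adjusted p = 0.62), with an interval of 0.014 to 0.47. Counts per gene do not separate the Pkm isoforms that differ by 1 exon. Tpi1 had a log2 fold change of 0.16, Pgk1 of 0.06, Pgam1 of 0.08 and Eno3, the muscle enolase, of 0.11. Without GC-treated 3, those of Tpi1, Pgk1 and Pgam1 were 0.04, -0.02 and -0.04.

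Reads of some of these genes could be shared with near copies. Of the 33 listed members, 5 had a copy at 95% identity or more over at least 50% of the transcript, namely Aldoa, Pgk1, Eno1, Pkm and Ldhb, and 1 of the copies was listed. This is Eno1b, with 43348, 46428 and 57656 normalized counts in GC-treated libraries, against 39614, 42035 and 44458 in vehicle-treated libraries, 24.0% of the mean of Eno1. From the highest to the lowest, its 6 libraries had the same order as those of Eno1, led by GC-treated 3. In 19 of the 33 members an exon overlapped another gene, and since strand is not marked by the kit, the values of these genes are uncertain to that extent.

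At the end of glycolysis, lactate dehydrogenase exchanges pyruvate and lactate, and the pyruvate dehydrogenase kinases (Pdk1, Pdk3) hold pyruvate back from the mitochondria. All 4 members of this group had positive log2 fold changes, with a median of 0.11. Ldha (GRCm39 chr7:46490899-46505061, plus strand) had 238570, 225347 and 286781 normalized counts in GC-treated libraries, against 224532, 222356 and 237670 in vehicle-treated libraries. GC-treated 3 stood above the rest, and the other 2 GC-treated libraries lay at the level of the vehicle-treated ones. Its log2 fold change was 0.13 ± 0.10 (SE, limma adjusted p = 0.68), and 0.02 without GC-treated 3. Pdk1, a HIF-1 target, had 4225, 4688 and 4779 normalized counts in GC-treated libraries, against 3585, 4094 and 4364 in vehicle-treated libraries, a log2 fold change of 0.19 ± 0.11 (SE, limma adjusted p = 0.62). Vehicle-treated 3 overlapped with GC-treated 1. The log2 fold changes of Pdk3 and Ldhb were 0.05 and 0.09.

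The promoter of Ldha, the most abundant member, is shown with those of Hk2 and Egln3, whose groups did not overlap, and of Egln1 and Rpia, which had the largest positive and negative log2 fold changes. Each is 300 bases from RefSeq on GRCm38.p6, an older build than that of the gene positions, running from 250 before to 50 after 1 start site and written 5′ to 3′ on the strand of the gene. Capitals mark the letters of the HIF core, ACGTG or GCGTG, on either strand, where it reads CACGT or CACGC on the other strand. Overlapping matches on both strands appear as CACGTG, which is also the E-box that MYC and MAX bind.
Ldha (chr7:46845554-46845853, plus strand): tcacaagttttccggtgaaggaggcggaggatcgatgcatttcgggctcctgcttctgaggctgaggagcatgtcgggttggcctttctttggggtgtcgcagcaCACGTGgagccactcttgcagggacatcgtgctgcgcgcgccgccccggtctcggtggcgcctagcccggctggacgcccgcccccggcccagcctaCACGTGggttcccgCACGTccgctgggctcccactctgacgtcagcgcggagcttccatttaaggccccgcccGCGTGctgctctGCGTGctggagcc
Hk2 (chr6:82774405-82774704, minus strand): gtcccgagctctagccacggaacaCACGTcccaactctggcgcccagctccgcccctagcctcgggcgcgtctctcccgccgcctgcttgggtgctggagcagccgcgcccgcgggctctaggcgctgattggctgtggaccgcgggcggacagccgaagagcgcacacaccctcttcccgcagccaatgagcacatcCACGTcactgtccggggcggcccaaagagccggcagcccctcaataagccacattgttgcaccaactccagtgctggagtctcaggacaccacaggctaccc
Rpia (chr6:70792126-70792425, minus strand): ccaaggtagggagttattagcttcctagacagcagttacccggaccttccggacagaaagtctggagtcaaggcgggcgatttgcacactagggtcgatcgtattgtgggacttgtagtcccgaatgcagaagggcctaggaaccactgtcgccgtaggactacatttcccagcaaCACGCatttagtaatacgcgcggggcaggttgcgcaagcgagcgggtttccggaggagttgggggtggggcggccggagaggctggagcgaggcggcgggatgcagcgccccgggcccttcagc
Egln1 (chr8:124949205-124949504, minus strand): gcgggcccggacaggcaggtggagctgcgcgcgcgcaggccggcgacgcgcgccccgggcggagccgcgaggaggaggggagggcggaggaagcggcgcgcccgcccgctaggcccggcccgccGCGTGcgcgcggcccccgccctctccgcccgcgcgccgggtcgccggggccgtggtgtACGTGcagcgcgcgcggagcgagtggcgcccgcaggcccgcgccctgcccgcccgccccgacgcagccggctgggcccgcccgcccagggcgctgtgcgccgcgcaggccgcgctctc
Egln3 (chr12:54203825-54204124, minus strand): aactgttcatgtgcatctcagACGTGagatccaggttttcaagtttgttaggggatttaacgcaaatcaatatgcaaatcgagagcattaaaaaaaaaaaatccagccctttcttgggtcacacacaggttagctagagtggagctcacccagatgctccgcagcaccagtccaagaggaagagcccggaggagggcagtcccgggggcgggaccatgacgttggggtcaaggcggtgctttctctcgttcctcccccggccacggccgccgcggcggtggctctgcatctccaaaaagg
The Ldha window shown held 7 matches of the HIF core, of which 4 lie in 2 E-boxes, the Hk2 and Egln1 windows held 2 each, and the Rpia and Egln3 windows 1 each. Another Ldha window, at a different start site and not shown, held 2 matches and 0 E-boxes. All 34 members matched a RefSeq promoter, and 31 of them (91.2%) held the HIF core in at least 1 window, against 67.7% of the 9205 tested genes with a window. By window, 79.6% of the members' 49 windows held it, against 61.7% of windows of tested genes and 43.8% of all 32851 windows. The E-box CACGTG was in 5 of the 34 members (14.7%) and in 11.8% of tested genes. A match is a description of letters and not a bound site.

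Isozyme make-up was compared within each library, where it does not depend on scaling. Hk1 made up 97.0 to 98.0% of summed hexokinase transcript per length in GC-treated and 96.6 to 97.0% in vehicle-treated libraries, and Hk2 made up 2.98, 1.96 and 2.77% in GC-treated 1, 2 and 3, against 3.00, 3.39 and 3.02% in vehicle-treated 1, 2 and 3. The Hk2 share was lower in all 3 GC-treated libraries, by 0.568 percentage points on average, or 0.990 points as a share of reads not divided by length, though GC-treated 1 lay just below the nearest vehicle-treated library. Among pyruvate dehydrogenase kinases, Pdk1 made up 20.2, 20.3 and 20.5% in GC-treated libraries, against 17.3, 19.4 and 20% in vehicle-treated libraries. That share was higher in all 3 GC-treated libraries, though GC-treated 1 and vehicle-treated 3 were nearly equal and vehicle-treated 1 lay farthest away. In both families 3 libraries against 3 cannot give an exact permutation p under 0.1. The groups overlapped in every other family compared, including Pfkfb3 with Pfkfb4 and Egln1 with Egln3. Pfkp, the platelet-type phosphofructokinase, made up 83.7% ± 1.71 in GC-treated and 83.8% ± 1.28 in vehicle-treated libraries (SD, n = 3 each). Ldha and Aldoa made up 99.9% or more of their families in both groups, and Eno1 98.7% ± 0.238 in GC-treated and 98.6% ± 0.344 in vehicle-treated libraries (SD, n = 3 each).

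The PFKFB enzymes make and break down fructose 2,6-bisphosphate, the activator of phosphofructokinase. Pfkfb3, the isoform with the strongest kinase activity, had 1486, 1794 and 1569 normalized counts in GC-treated libraries, against 1626, 1298 and 1576 in vehicle-treated libraries. The groups overlapped in part, with GC-treated 2 the highest and vehicle-treated 2 the lowest. The log2 fold change was 0.11 ± 0.13 (SE), or 0.0090 without vehicle-treated 2 and 0.03 without GC-treated 2. Pfkfb4, a low gene, had 96.1, 141 and 109 normalized counts in GC-treated libraries, against 118, 70.3 and 83.5 in vehicle-treated libraries, a log2 fold change of 0.36 ± 0.32 (SE). Its interval of -0.37 to 1.10 includes a doubling, so this depth and spread do not limit it closely.

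The oxidative branch of the pentose phosphate pathway makes NADPH in the steps of G6pdx and Pgd, with the lactonase Pgls between them. All 3 had positive log2 fold changes with a median of 0.063. G6pdx, the entry enzyme, had 9684, 9319 and 10169 normalized counts in GC-treated libraries, against 8867, 9608 and 9448 in vehicle-treated libraries. It was among the steadiest members, with a within-group SD of 0.062 on the log2 scale, and its log2 fold change of 0.06 had an interval of -0.12 to 0.25. Pgls had 3900, 3418 and 4582 normalized counts in GC-treated libraries, against 3719, 3517 and 3537 in vehicle-treated libraries, with the highest and the lowest value both among the GC-treated. The log2 fold change of Pgls was 0.13, or 0.02 without GC-treated 3, and that of Pgd was 0.06.

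The non-oxidative branch rearranges sugar phosphates, with Rpia and Rpe converting ribulose phosphate to its isomers and the transketolase Tkt and transaldolase Taldo1 linking back to glycolysis. Rpia, which makes the ribose phosphate of nucleotides (GRCm39 chr6:70742704-70769216, minus strand), had 390, 151 and 168 normalized counts in GC-treated 1, 2 and 3, against 430, 446 and 285 in vehicle-treated 1, 2 and 3. GC-treated 2 and 3 were low, and GC-treated 1 lay among the vehicle-treated libraries. The log2 fold change was -0.82 ± 0.36 (SE, limma, unadjusted p = 0.051, adjusted p = 0.62), with an interval of -1.64 to 0.0055. Without GC-treated 1 it was -1.25 (limma adjusted p = 0.078), and without GC-treated 2 it was -0.57. From the lowest to the highest, the Rpia values had the order GC-treated 2, GC-treated 3, vehicle-treated 3, GC-treated 1, vehicle-treated 1 and vehicle-treated 2. The share of mitochondrial reads, 0.902, 0.400 and 0.615% in GC-treated 1, 2 and 3 against 0.910, 1.13 and 0.757% in vehicle-treated 1, 2 and 3, had the same order, and the neutrophil share of reads had the reverse order. The part of these in the Rpia values was not tested. Taldo1 had 18464, 21268 and 22029 normalized counts in GC-treated libraries, against 18047, 16843 and 18896 in vehicle-treated libraries, a log2 fold change of 0.20 ± 0.09 (SE, limma adjusted p = 0.62). Only vehicle-treated 3 lay within the GC-treated range. Rpe and Tkt had log2 fold changes of 0.01 and 0.11, and Tkt had 0.04 without GC-treated 3.

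**Figure D4:**
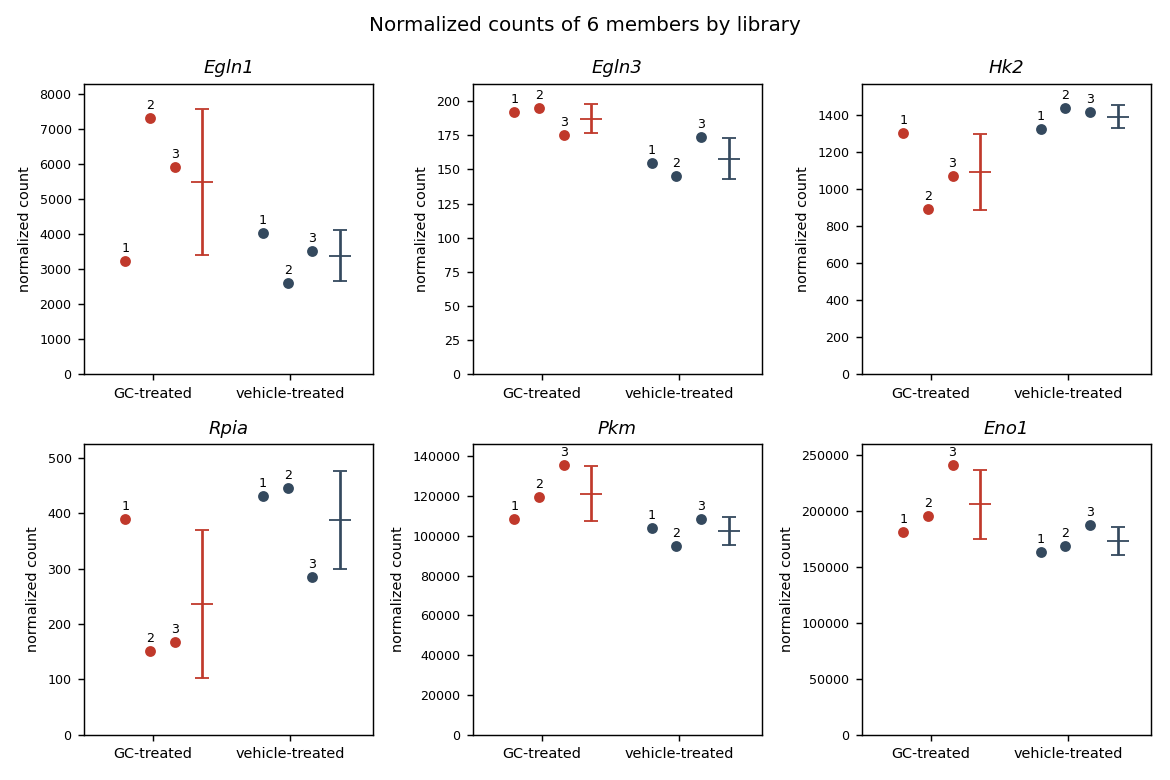
Normalized counts of Egln1, Egln3, Hk2, Rpia, Pkm and Eno1 in each library (points, with the replicate number) and the mean ± SD of each group (bars, n = 3), with GC-treated libraries left of vehicle-treated ones and each axis starting at 0. GC-treated 1 lies with the vehicle-treated libraries for Egln1 and Rpia, whereas all 3 GC-treated points of Hk2 lie below and all 3 of Egln3 above the vehicle-treated ones.

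Hif1a encodes the regulated subunit of HIF-1, and Egln1 and Egln3 encode prolyl hydroxylases that mark it for breakdown when oxygen is present. Hif1a had 18798, 20229 and 17210 normalized counts in GC-treated libraries, against 16986, 17555 and 19483 in vehicle-treated libraries. These overlapped, and the log2 fold change was 0.06 ± 0.09 (SE), with an interval of -0.15 to 0.27. HIF-1 activity is set largely at the protein level, which these data do not measure. Egln1, the main oxygen sensor of the family (GRCm39 chr8:125635308-125676865, minus strand), had 3226, 7338 and 5933 normalized counts in GC-treated 1, 2 and 3, against 4027, 2598 and 3530 in vehicle-treated 1, 2 and 3. GC-treated 2 and 3 lay above all vehicle-treated libraries and GC-treated 1 lay below 2 of them. The mean was 5499 ± 2090 in GC-treated and 3385 ± 726 in vehicle-treated libraries (SD, n = 3 each). Its log2 fold change of 0.64 ± 0.28 was the largest positive one among the members (SE, limma, unadjusted p = 0.048, adjusted p = 0.62), with an interval of 0.0082 to 1.28. Without GC-treated 1 it was 0.99 (limma adjusted p = 0.065), and without GC-treated 2 it was 0.39. The same 2 GC-treated libraries had the highest neutrophil shares of reads, 0.0190 and 0.0134%, while vehicle-treated 3 had 0.00665% and a middling Egln1 level, and the part of this in the Egln1 values was not tested. In bulk RNA, more cells of a type that holds a transcript and more of it per cell cannot be told apart. Egln3, an inducible HIF-1 target at low level here, had 192, 195 and 175 normalized counts in GC-treated libraries, against 155, 145 and 174 in vehicle-treated libraries. All 3 GC-treated values lay above the vehicle-treated ones, but GC-treated 3 and vehicle-treated 3 were nearly equal. The log2 fold change was 0.25 ± 0.22 (SE, limma adjusted p = 0.71).

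Of the hypoxia targets, Bnip3, which acts in the clearance of mitochondria, had 71.0, 66.5 and 93.7 normalized counts in GC-treated libraries, against 68.7, 83.2 and 54.2 in vehicle-treated libraries. P4ha1, a collagen prolyl hydroxylase, had 2088, 2706 and 2360 normalized counts in GC-treated libraries, against 2430, 2036 and 2560 in vehicle-treated libraries. In both the groups overlapped in part, with log2 fold changes of 0.17 ± 0.35 for Bnip3 and 0.02 ± 0.14 for P4ha1 (SE). Vegfa had 0, 13.9 and 0 normalized counts in GC-treated libraries, against 4.36, 3.24 and 9.39 in vehicle-treated libraries, and no fold change is given at this depth.

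The members differed from each other in spread as well as level. The median within-group SD on the log2 scale was 0.14 over the 32 members and 0.18 over all tested genes, and 0.13 for both among genes with a mean of at least 1000 normalized counts. Pdk3 and G6pdx were the steadiest at 0.060 and 0.062, and Aldoc, Rpia and Egln1 the most variable at 0.95, 0.59 and 0.49. Aldoc and Rpia are low genes, whereas Egln1 had at least 2598 normalized counts in every library.

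Other genes of these pathways had no call at an adjusted p under 0.05 in limma either. Of 22 tested other genes of glycolysis and pyruvate use, 14 had positive log2 fold changes and the median was 0.037. The mitochondrial pyruvate carrier subunits Mpc1 and Mpc2 had 0.23 and 0.19, or 0.07 and 0.11 without GC-treated 3, Pdhx of the pyruvate dehydrogenase complex had 0.16, and Galm, which interconverts forms of galactose, had -0.24. Groups did not overlap in 2 of the 22 genes with GC-treated libraries above, Pdhx among them, and in 1 with them below, Galm. The share over all tested genes was 6.4% in each direction. Among 9 glucose and lactate transporter genes and their regulators, 5 were positive. Txnip, a brake on glucose uptake, had 6044, 7114 and 7482 normalized counts in GC-treated libraries, against 8160, 8491 and 8162 in vehicle-treated libraries, so that all GC-treated values were lower. Its log2 fold change was -0.27 ± 0.10 (SE, limma, unadjusted p = 0.023, adjusted p = 0.62), or -0.18 without GC-treated 1. Bsg, the partner chain of the lactate carriers, had 0.19, Arrdc4, a relative of Txnip, had 0.59, or 0.31 without GC-treated 2, and Emb, another partner chain, had -0.11. Of the 9 genes, only Bsg, with GC-treated libraries above, and Txnip, with them below, had groups that did not overlap. This was so for 6.4% of all tested genes in each direction. Of 10 other pentose phosphate and nucleotide sugar genes, 6 were positive, with -0.20 for Prps2, 0.14 for Dera, 0.17 for Idnk and 0.29 for Rbks, which had 0.07 without vehicle-treated 2.

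Of 33 tested other hypoxia genes, 13 had positive and 20 negative log2 fold changes, with a median of -0.030. Plod2, a lysyl hydroxylase of collagen, had 97.8, 113 and 117 normalized counts in GC-treated libraries, against 206, 204 and 168 in vehicle-treated libraries. All GC-treated values were lower, with a log2 fold change of -0.81 ± 0.25 (SE, limma, unadjusted p = 0.0091, adjusted p = 0.62), between -0.91 and -0.74 when any 1 library was left out. Bhlhe40, a transcription factor, had 0.21, Maff, another, had 0.58, and Ddit4, an inhibitor of mTORC1 and a known GC target, had -0.65, with overlapping groups. For Bhlhe40 and Maff all GC-treated values were higher. Groups did not overlap in 2 of the 33 genes with GC-treated libraries above and in 2 with them below. The share over all tested genes was 6.4% in each direction. Leaving out vehicle-treated 2 or GC-treated 2 gave -0.38 and -0.40 for Ddit4. Of 19 tested regulators of glycolytic genes, 6 were positive and 13 negative, with a median of -0.096, and 4 were lower at an unadjusted p under 0.05 in limma, against 5.07% of all tested genes. Irf4, a transcription factor of effector T cells, had 2827, 1744 and 2329 normalized counts in GC-treated libraries, against 3126, 3662 and 2975 in vehicle-treated libraries, a log2 fold change of -0.52 ± 0.17 (SE, limma adjusted p = 0.62). Max, the partner of MYC, had 4755, 2015 and 2846 normalized counts in GC-treated libraries, against 5311, 4931 and 4818 in vehicle-treated libraries. Its GC-treated values were all lower, with GC-treated 1 near the vehicle-treated level, and its log2 fold change was -0.74 ± 0.26 (SE, limma adjusted p = 0.62). Irf4 and Max were the 2 of the 19 regulators whose GC-treated libraries all lay below, and 0 had them all above. Over all tested genes, 6.4% did not overlap in each direction. Max passed the adjusted threshold without GC-treated 1, at a log2 fold change of -1.07, and had -0.45 without GC-treated 2. Rptor, the defining subunit of mTORC1, had -0.47, or -0.28 without GC-treated 3, and Tsc1, an inhibitor of mTORC1, had -0.38, and in both the groups overlapped. Genes of dividing cells, listed for comparison, took 0.637, 0.559 and 0.574% of reads in GC-treated libraries, against 0.616, 0.664 and 0.619% in vehicle-treated libraries. Their directions were mixed, with 5 of the 10 genes positive and 5 negative. Groups did not overlap in 2 of these with GC-treated libraries above and in 1 with them below. That share was 6.4% of all tested genes in each direction. At an unadjusted p under 0.05 in limma, 0 of these were higher and 2 lower, against 2.12% and 5.07% of all tested genes.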

How the data were processed

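Bulk RNA-Seq was made by the authors from sorted cells with SMART v4 cDNA and Nextera XT libraries, which do not mark strand. The authors aligned reads to GRCm39 with STAR, counted them per gene and scaled them with DESeq2; bcl2fastq is also named in the submitters' processing notes, which give no versions. The authors deposited 1 table of normalized counts, a signal made by dividing the counts of a library by its size factor. In each column 100% of values were whole multiples of 1 step within 0.001 of a read, so reads were recovered; for GC-treated 2 the step lies too near 1 for an independent check.

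The main test was limma 3.58.1 with a mean-variance trend on log2(value + 1), as the design names for normalized values, for genes that reached 10 normalized counts in 3 or more libraries. P-values were adjusted by Benjamini-Hochberg and the threshold was 0.05. As alternatives, edgeR 4.0.16 with the authors' size factors or TMM and DESeq2 1.42.0, also with ashr 2.2.63, were run on recovered reads in R 4.3.3, beside other pseudocounts, filters and scaling, thinned reads, a block for the replicate number and the omission of each library. The tests were tested on simulated data. TPM used the canonical transcript length of Gencode M39, matched for 13707 of 14051 symbols, and near copies were found with minimap2. Samples were grouped by their labels. The members and lists were chosen with earlier results of these data known. Every member is named, with values per library for the 2 smallest p and the highest level of each role group, and up to 4 genes with the smallest p of each other list. Pfkp, Aldoc and Vegfa were given values outside this rule, after these were seen. Coordinates are 1-based.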

Additional observations from a re-analysis of the deposited data

How the results depend on the processing

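At an adjusted p under 0.05, 0 members were higher and 0 lower under every alternative run. At a threshold of 0.1 the same held in the main fit. Without GC-treated 1, the limma adjusted p was under 0.1 for Egln1, at 0.065, and for Rpia, at 0.078. Over all genes, those higher numbered 0 to 2 on omitting any single library, and 32 without both GC-treated 1 and vehicle-treated 3, a choice made after seeing the data. Those lower numbered 2 by DESeq2, 1 by limma without a trend, 0 to 43 on omitting any single library and 64 without both. With the replicate block, 0 were higher and 0 lower. Same-numbered libraries had correlations of 0.063, -0.14 and 0.13 in their deviations. These values do not show pairing by number, but with 3 libraries per group they cannot exclude it.

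The members' median log2 fold change was 0.0195 with ashr and ranged over 0.0293 to 0.166 on omitting single libraries, lowest without GC-treated 3. Of 32 members, 23 kept one sign under every setting and 9 did not, of which 7 changed sign only when a library was left out. Leaving out each library gave ranges of -0.10 to 0.017 for Hk1, -0.23 to 0.29 for Pfkm, -0.75 to 0.25 for Aldoc, -0.021 to 0.13 for Pgk1, -0.041 to 0.20 for Pgam1, -0.054 to 0.28 for Eno3, -0.18 to 0.35 for Ldhb, -0.035 to 0.055 for Rpe, -0.073 to 0.12 for P4ha1 and -0.19 to 0.044 for Emb. Pfkm was also positive by edgeR at 0.048, or 0.047 with TMM, by DESeq2 at 0.049 and with ashr at 0.0032, and P4ha1 was -0.00026 with thinned reads. Omitting some single library moved the log2 fold change by over 1.5 times in 30 of 32 members and 14 of the 20 other named genes. The cause was not tested. Depth limits mainly the low members Vegfa, Bnip3 and Aldoc.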
